A study of Mus musculus with 2 samples.

Results

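The 10 genes described here encode enzymes and receptors of prostaglandin and leukotriene signalling: the phospholipase Pla2g4a, the cyclooxygenases Ptgs1 and Ptgs2, the prostaglandin E synthase Ptges, the leukotriene enzymes Alox5, Alox5ap, Lta4h and Ltc4s, and the prostaglandin E2 receptors Ptger2 and Ptger4. They were chosen by symbol as a list, and all 10 were found among the 55536 annotated genes, of which 22028 are protein-coding. RNA of a nuclear fraction was measured in C57BL/6J mouse macrophages grown from bone marrow, which had been exposed for 10 min to 100 ng/ml Lipid A, the part of bacterial lipopolysaccharide that Toll-like receptor 4 recognises. No genotype other than the strain is labelled, age and sex were not collected, and the labels name the fraction as nucleoplasmic in 1 field and as nucleus in others. The samples form 1 group of 2 libraries, made from 1 µg of RNA in replicate 1 and 500 ng in replicate 2, with 19153465 and 11622346 expected counts on annotated genes. Unstimulated cells were not analysed here, so every value is a level at 1 time and none measures induction.

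Cytosolic phospholipase A2 frees arachidonic acid from membranes. Cyclooxygenases turn it into prostaglandin H2, which terminal synthases convert to prostaglandin E2, D2 and thromboxane, while 5-lipoxygenase and its membrane partner turn it into leukotriene A4, the source of leukotriene B4 and of the cysteinyl leukotrienes. In macrophages cyclooxygenase-1 is a textbook constitutive enzyme, and cyclooxygenase-2 and the microsomal prostaglandin E synthase are textbook inducible ones. By that background and not by these values, Ptgs1, Pla2g4a, Alox5, Alox5ap, Lta4h and Ltc4s are grouped below as constitutive enzymes, Ptgs2 and Ptges as inducible enzymes, and Ptger2 and Ptger4 as receptors.

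The cyclooxygenases are the pair in which a constitutive and an inducible enzyme carry out the same step, so the sequences at their starts are shown for comparison. Each runs from 250 bases before the annotated start to 30 bases after it, from RefSeq on build GRCm38.p6, on the plus strand, at chr2:36230176-36230455 for Ptgs1 and chr1:150099781-150100060 for Ptgs2. Capitals mark matches to the motifs searched.
Ptgs1: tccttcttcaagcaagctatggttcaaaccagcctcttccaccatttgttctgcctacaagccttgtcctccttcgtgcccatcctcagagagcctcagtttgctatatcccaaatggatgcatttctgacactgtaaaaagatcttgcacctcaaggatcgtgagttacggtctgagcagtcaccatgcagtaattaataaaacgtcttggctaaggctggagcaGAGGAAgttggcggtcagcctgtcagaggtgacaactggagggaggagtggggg
Ptgs2: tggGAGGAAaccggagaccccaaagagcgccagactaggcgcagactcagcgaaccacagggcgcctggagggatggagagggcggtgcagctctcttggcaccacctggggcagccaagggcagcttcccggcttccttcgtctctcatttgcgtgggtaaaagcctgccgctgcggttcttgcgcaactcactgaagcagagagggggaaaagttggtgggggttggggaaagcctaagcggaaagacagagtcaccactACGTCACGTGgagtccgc
The motifs were the TATA element TATAAA, the cyclic AMP response core TGACGT, the AP-1 element TGANTCA, the E-box CACGTG, the ETS-type element GAGGAA and the NF-kB consensus, searched on both strands of windows of 300 bases. In Ptgs2 a TGACGT on the reverse strand begins at base 13 after the start and overlaps a CACGTG that begins at base 17, and a GAGGAA lies at base -247. TGACGT was held by 7.51% and CACGTG by 7.15% of all 32851 promoter windows, and among the 9 members with a window Ptgs2 alone held either. In Ptgs1 the match was a GAGGAA at base -24, a motif found in 6 of the 9 members and in 28.3% of all windows. The windows of the 9 members held no TGANTCA (7.81% of all windows) and no NF-kB consensus (4.51%), and Pla2g4a alone held TATAAA (13.6%). That match lay at base -200 on the reverse strand, in the window of an alternative start at chr1:149922390-149922689. The window at the outermost start of Pla2g4a, chr1:149961241-149961540, held none. A match says only that these letters are present.

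A short run of the Ptgs2 3′ UTR is shown because the inducible transcript is the member with the most ATTTA elements, the core of the AU-rich elements known from short-lived mRNAs. It lies on mm10 at chr1:150105794-150105823, plus strand, and begins 11 bases after the stop codon, with 4 copies of ATTTA in capitals, of which 3 overlap and 1 stands apart.
Ptgs2 3′ UTR: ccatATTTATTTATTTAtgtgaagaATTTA
The whole annotated 3′ UTR of Ptgs2 (2445 bases) held 14 copies, or 5.73 per kb. Among 9817 detected protein-coding genes, 67.4% held at least 1 copy and the median was 1.30 per kb. Pla2g4a held 4 copies in 443 bases (9.03 per kb), Ptger2 held 6 in 1825 bases and Ptger4 held 5 in 1233 bases. Alox5 and Alox5ap held 2 each. Ptgs1, Ptges, Ltc4s and Lta4h held none, in 3′ UTRs of 921, 3106, 99 and 94 bases. The translated coding sequences of Ptgs1 and Ptgs2 (602 and 604 residues) were identical at 374 of 585 aligned positions, or 63.9%, whereas those of Ptger2 and Ptger4 (362 and 513 residues) were 36.8% identical.

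Levels are given in TPM, a share of all transcripts in which counts are divided by transcript length, and so allows genes to be compared. Values are mean ± SD with n = 2, and the SD is the spread between the libraries. A gene was called detected at 1 TPM or more in both libraries. On this rule 7 of the 10 members were detected, beside 46.0% of protein-coding genes and 23.6% of all genes. The 3 that were not detected were Ptgs2, Alox5 and Ptges. In a bulk sample fewer cells that express a gene and less RNA per cell cannot be told apart.

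Pla2g4a (ENSMUSG00000056220.14, chromosome 1, 149829618 to 149961290, minus strand), which encodes the phospholipase that supplies arachidonic acid, stood at 3.31 and 2.70 TPM in replicates 1 and 2, a mean of 3.01 ± 0.431. The 95% counting intervals of the libraries, 2.87 to 3.80 and 2.22 to 3.25 TPM, overlapped.

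Ptgs1 (ENSMUSG00000047250.13, chromosome 2, 36230426 to 36252272, plus strand), cyclooxygenase-1, stood at 25.2 and 18.8 TPM, a mean of 22.0 ± 4.49, above 87.8% of protein-coding genes. Ptgs2 (ENSMUSG00000032487.8, chromosome 1, 150100031 to 150108227, plus strand), cyclooxygenase-2, stood at 2.69 and 0.82 TPM, a mean of 1.76 ± 1.32, above 56.2% of protein-coding genes. The constitutive cyclooxygenase was thus the higher of the pair in both libraries, and the ranges did not overlap. The ratio of Ptgs1 to Ptgs2 in TPM, over all models of each gene, was 9.36 in replicate 1 and 22.98 in replicate 2. The coding model of Ptgs1 alone stood at 10.0 and 7.64 TPM, a smaller lead over Ptgs2, of which only coding models are annotated. Ptgs2 had 256 and 50 expected counts, and Ptgs1 had 876 and 449.

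Ptges (ENSMUSG00000050737.13, chromosome 2, 30889471 to 30929863, minus strand), the inducible microsomal prostaglandin E synthase, was the lowest member. It had 25 and 23 expected counts and stood at 0.38 and 0.51 TPM, 0.445 ± 0.0919 on average. Its counting intervals, 0.246 to 0.561 and 0.323 to 0.765 TPM, overlapped and lay below 1 TPM. They cover counting error only. The posterior means that the authors deposited were higher, at 0.92 and 1.30 TPM. Their interval bounds, 0.373 to 1.56 and 0.536 to 2.22 TPM, took in 1 TPM. The other prostaglandin E synthases, singled out after their values were seen, stood higher in both libraries. Cytosolic Ptges3 was at 12.1 and 9.47 TPM, or 31.8 and 18.6 times Ptges, and membrane-associated Ptges2 was at 1.59 and 1.72 TPM, or 4.18 and 3.37 times Ptges.

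On the leukotriene side the enzyme and its partner stood far apart. Alox5ap (ENSMUSG00000060063.9, chromosome 5, 149264767 to 149288153, plus strand), the membrane protein that presents arachidonic acid to 5-lipoxygenase, was the highest member in both libraries at 42.3 and 25.5 TPM, a mean of 33.9 ± 11.9. That placed it above 92.6% of protein-coding genes. Alox5 (ENSMUSG00000025701.12, chromosome 6, 116410077 to 116461178, minus strand), 5-lipoxygenase itself, stood at 0.56 and 0.66 TPM, a mean of 0.610 ± 0.0707, on 28 and 14 counts. Alox5ap exceeded Alox5 by 75.5 times in replicate 1 and 38.6 times in replicate 2. The upper counting bounds of Alox5 were 0.809 and 1.11 TPM, so a level just above the detection limit is not excluded by depth in replicate 2. Its deposited posterior means were 0.96 and 1.22 TPM. Their interval bounds, 0.518 to 1.46 and 0.601 to 1.92 TPM, took in 1 TPM in both libraries.

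Of the enzymes that use leukotriene A4, Lta4h (ENSMUSG00000015889.8, chromosome 10, 93453411 to 93484875, plus strand), the hydrolase that makes leukotriene B4, stood at 21.4 and 23.3 TPM, a mean of 22.3 ± 1.32. Ltc4s (ENSMUSG00000020377.15, chromosome 11, 50236461 to 50238616, minus strand), which attaches glutathione to make leukotriene C4, stood at 4.23 and 5.27 TPM, a mean of 4.75 ± 0.735, on 39 and 28 counts. Lta4h was 5.06 and 4.42 times as high, and the ranges of the pair did not overlap. Ltc4s shares 26.4% of its exonic bases with Gm26542 on the opposite strand, a gene at 4.83 and 2.98 TPM. How strand was handled is not stated in the sources used here; its reads and those of Gm26542 cannot be told apart over those bases.

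Both receptors that raise cyclic AMP in answer to prostaglandin E2 were detected. Ptger4 (ENSMUSG00000039942.15, chromosome 15, 5206661 to 5244187, minus strand), the EP4 receptor, stood at 7.11 and 4.33 TPM, a mean of 5.72 ± 1.97. Ptger2 (ENSMUSG00000037759.6, chromosome 14, 44988195 to 45003820, plus strand), the EP2 receptor, stood at 3.36 and 2.53 TPM, a mean of 2.95 ± 0.587. Ptger4 was 2.12 and 1.71 times as high as Ptger2, and the library ranges of the receptors did not overlap.

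**Figure D1:**
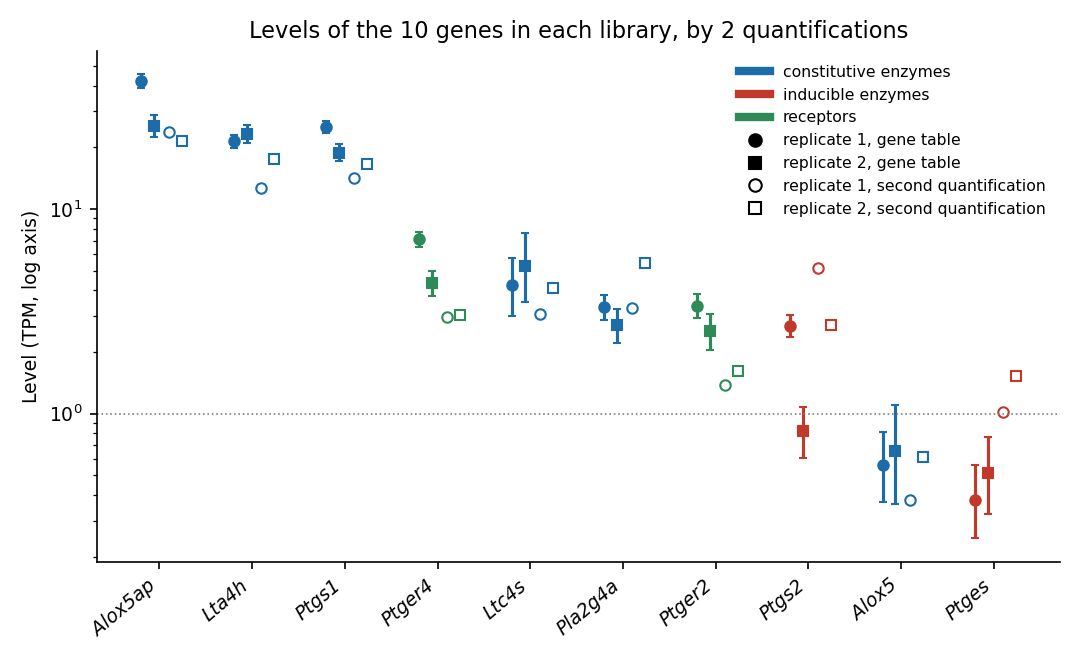
TPM of the 10 genes on a log axis, with circles for replicate 1 and squares for replicate 2. Filled points with 95% counting intervals are the gene tables, open points the second quantification, colours the groups and the dotted line 1 TPM; Alox5ap, Lta4h and Ptgs1 stand at 18.8 to 42.3 TPM in the gene tables, and Alox5 and Ptges lie below 1 TPM in both libraries.

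In order of mean TPM the members ran Alox5ap, Lta4h, Ptgs1, Ptger4, Ltc4s, Pla2g4a, Ptger2, Ptgs2, Alox5 and Ptges. Of the 9 pairs of neighbours in this order, 5 had library ranges that did not overlap. The ranges of Lta4h and Ptgs1, of Ptger4 and Ltc4s, and of Pla2g4a and Ptger2 overlapped. The order within those pairs switched between the libraries and is not resolved. The ranges of Ptger2 and Ptgs2 also overlapped, but Ptger2 was the higher within each library. Their counting intervals overlapped in replicate 1 and not in replicate 2. The second quantification, described below, put Ptgs2 above Ptger2 in both libraries. The 6 constitutive enzymes had a median of 12.8 and 12.1 TPM in replicates 1 and 2, and 5 of them were detected. They held 87.8% and 90.3% of the summed TPM of the members. The 2 receptors held 9.47% and 8.12%. The 2 inducible enzymes held 2.78% and 1.58%, and neither was detected in both libraries. The groups were not uniform: Alox5, a constitutive enzyme, stood below Ptgs2 in both libraries, although in replicate 2 their counting intervals overlapped. Those of Alox5 and Ptges overlapped in both.

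The authors also deposited a second quantification of the same reads, and it ordered the members differently. Alox5ap was highest again, at 23.9 and 21.4 TPM, and was the 1 member of 10 to keep its place. Ptgs2 stood at 5.17 and 2.73 TPM and Ptges at 1.02 and 1.53 TPM, so that both inducible enzymes were detected and 9 of 10 members passed 1 TPM, beside 48.8% of protein-coding genes. The leads over Ptges shrank, with Ptges3 at 6.51 and 5.49 times and Ptges2 at 1.86 and 1.36 times its level. Alox5 became the lowest member at 0.377 and 0.615 TPM. The receptors were lower, at 2.96 and 3.03 TPM for Ptger4 and 1.39 and 1.61 TPM for Ptger2, with Ptger4 still the higher by 2.14 and 1.88 times. Ptgs1 remained above Ptgs2 over all models, by 2.75 times in replicate 1 and 6.07 times in replicate 2. In coding models alone the order was not kept. The coding model of Ptgs1 stood at 2.60 and 3.68 TPM, below Ptgs2 in replicate 1 and above it in replicate 2. It was above the full-length Ptgs2 model (1.50 and 0.684 TPM) in both libraries.

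For Ptgs2 the gap between the quantifications came with 1 short annotated model. Ptgs2-202 is 358 bases long, and its 127-base exon 1 (chromosome 1, 150100332 to 150100458) lies wholly inside intron 1 of the full-length coding model Ptgs2-201, while its exons 2 and 3 lie inside exons 2 and 3 of that model. The first transcript table gave Ptgs2-202 a level of 0 in both libraries. The second gave it 3.67 and 2.04 TPM, or 70.9% and 74.9% of the gene's TPM. Ptgs2-201, 4453 bases long, was listed at 2.69 and 0.82 TPM in the first table and at 1.50 and 0.684 TPM in the second. The full-length model was higher in replicate 1 in both tables.

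Because the RNA is nuclear, the share of each gene's TPM in 3 annotated types of model other than protein-coding was tabulated. Retained intron transcripts keep all or part of an intron of the coding model, and processed transcripts have no open reading frame assigned. Nonsense-mediated decay models, which do carry a coding sequence, were the third, and the 1 such model of a member, in Alox5, was at 0 TPM in the first table. The median over the 10123 detected protein-coding genes was 28.8% in replicate 1 and 29.6% in replicate 2. The member median was 34.4%, averaged over the libraries. Single members ranged from 0 for Ptgs2 in both libraries to 73.2% and 93.9% for Alox5, whose values rest on 28 and 14 counts. The value for Ptgs2 was fixed by the annotation, which holds no model of these types for it. It says nothing of introns kept in Ptgs2 RNA.

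Ptger2 was among the members with the largest shares, 65.8% and 74.4%, all of it in the retained intron model Ptger2-202. This single-exon model of 2651 bases runs from exon 1 of the coding model through the splice donor and takes in 1509 of the 11942 bases of intron 1. The boundary it crosses lies on mm10 at chr14:44989793-44989822, plus strand, shown here with the GT of the donor, the first 2 bases of the intron, in capitals.
Ptger2 exon 1 and intron 1: tccttgcctttcacaGTaagtcacctttgt
Ptger2-202 stood at 2.21 and 1.89 TPM, and the spliced coding model Ptger2-201 at 1.15 and 0.65 TPM. Read positions were not analysed here, so how many reads cross that boundary was not tested.

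Ptgs1 and Lta4h, the other abundant enzymes beside Alox5ap, had large shares as well. In Ptgs1 60.1% and 59.4% of TPM lay in models of other types. The largest by TPM was Ptgs1-205, a retained intron model of which 77.5% lies in intron 7. It stood at 7.53 and 4.24 TPM, beside 10.0 and 7.64 TPM for the coding model Ptgs1-201. By counts the processed transcript Ptgs1-204 was larger, with 157 and 100 against 73.8 and 27.6 for Ptgs1-205. In Lta4h the shares were 51.5% and 63.5%. The largest such model by TPM was Lta4h-206 at 3.61 and 6.18 TPM, beside 10.4 and 8.51 TPM for the coding model Lta4h-201. By counts the retained intron model Lta4h-205 was larger, with 151 and 106 against 29.1 and 33.2 for Lta4h-206. In Pla2g4a 34.1% and 33.7% lay in Pla2g4a-204, which falls 92.0% within intron 3 of a gene that spans 128817 intronic bases. Alox5ap, at 26.4% and 25.3%, and Ltc4s, at 20.99% and 25.2%, lay below the all-gene median. Ptges lay below it too, at 18.0% and 9.80%.

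These shares depend on the unit, since short models weigh more in TPM than in counts. By expected counts the Ptgs1 share was 31.9% and 34.7%, the Alox5ap share 10.9% and 10.0%, the Ptges share 2.88% and 1.04%, the Lta4h share 35.5% and 44.4% and the Ptger2 share 57.3% and 67.3%. The second table gave Ptgs1 81.7% and 77.8% of TPM, Pla2g4a 63.1% and 79.5%, Ptges 71.8% and 75.9%, and Ltc4s 33.6% and 47.5%. For Pla2g4a the retained intron model Pla2g4a-204 was smaller there, at 13.4% and 11.4%. The processed transcript Pla2g4a-203, 247 bases long and at 0 in the first table, held 49.7% and 68.1%. Averaged over the libraries, 7 of 10 members moved by more than their SD by counts and 5 of 10 by the second table.

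**Figure D2:**
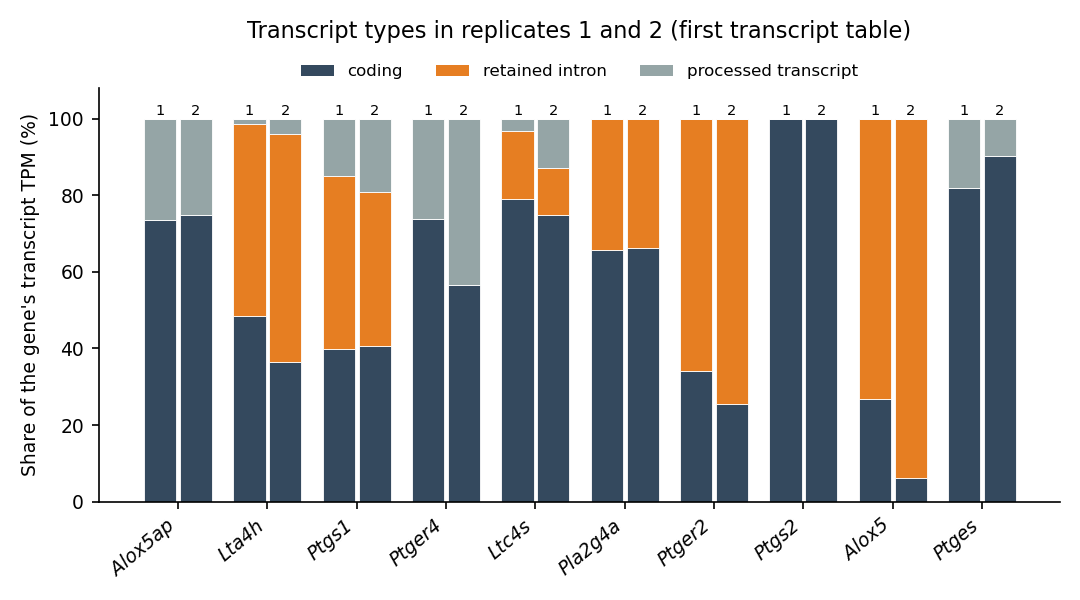
Share of each gene's transcript TPM (percent, first transcript table) in coding, retained intron and processed transcript models; the bars marked 1 and 2 are the replicates. Ptgs2 is 100% coding in both because only coding models of it are annotated. Retained intron models hold 65.8% and 74.4% of Ptger2 and 50.2% and 59.6% of Lta4h.

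**Figure D3:**
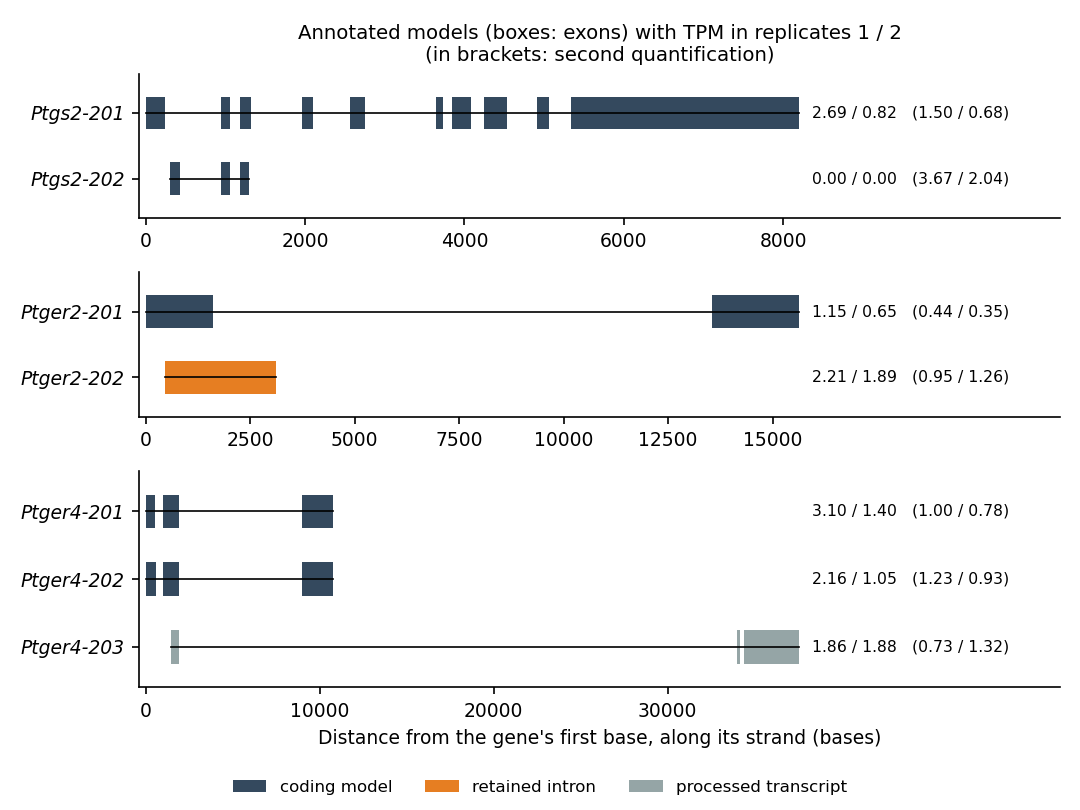
Annotated models of Ptgs2, Ptger2 and Ptger4, with exons as boxes, introns as lines and distance in bases from the gene's first base; TPM in replicates 1 and 2 is printed beside each model, with the second quantification in brackets. Ptgs2-202 changes from 0 to 3.67 and 2.04 TPM between quantifications, and Ptger2-202 (2.21 and 1.89 TPM) stands above the coding model in both libraries.

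The libraries were then compared with each other on counts scaled by TMM, with a pseudocount of 1. The comparison has 1 library on each side, so no test was made, and the amount of RNA used, the depth and the culture cannot be told apart between them. Of 11613 genes with a mean of at least 50 scaled counts, 1.46% were more than 2-fold higher in replicate 1 and 0.474% more than 2-fold higher in replicate 2, 1.94% in either direction. Of the 7 members among them, 1 was over 2-fold higher in replicate 1, namely Ptgs2, and none in replicate 2. Ptgs2 was 3.06 times as high in replicate 1 (95% counting interval 2.25 to 4.23), a log2 difference of 1.60 that exceeded 99.6% of the genes compared.

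The other 6 members with enough counts stayed within 2-fold. Ptger4 was 1.48 times as high in replicate 1 (interval 1.25 to 1.74), Alox5ap 1.40 times (1.21 to 1.62) and Ptgs1 1.16 times (1.04 to 1.31). The intervals of Ptger2 (0.992 to 1.63), Pla2g4a (0.862 to 1.39) and Lta4h (0.855 to 1.10) included 1. In all, 6 of the 7 were higher in replicate 1, beside 49.5% of all genes compared. The median log2 difference of the 7 was 0.34, and that of all genes -0.00, with 5% of genes below -0.46 and 5% above 0.62. Ptges, Ltc4s and Alox5 fell short of 50 counts, and their intervals also included 1 (0.353 to 1.20, 0.499 to 1.40 and 0.608 to 2.45).

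Genes known to answer Toll-like receptor 4 within minutes were, like Ptgs2, higher in replicate 1. Their list was chosen with earlier results of these data known, so the counts are description only and measure no response. Of the 20 early response genes listed, such as Fos, Egr1 and Tnf, 20 were higher in replicate 1 and 18 were over 2-fold higher. The median log2 difference was 1.51 and the range 0.46 to 2.69. Ptgs2 lay inside that range, with 9 of the 20 above it. Macrophage markers were also higher in replicate 1, 7 of 8, with a median log2 difference of 0.61 and a summed level of 3661 and 2238 TPM. Their part in the Ptgs2 difference was not tested.

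**Figure D4:**
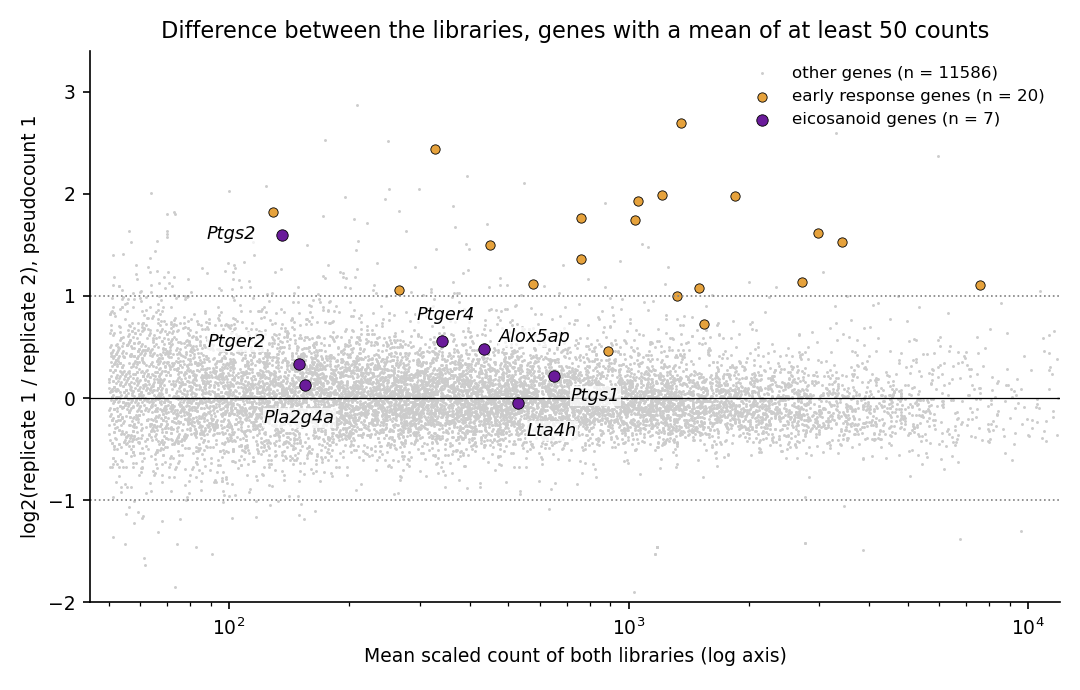
Log2 ratio of scaled counts, replicate 1 over replicate 2, against mean scaled count (log axis); grey points are all genes compared, orange points 20 early response genes, purple points the 7 eicosanoid genes with enough counts, and dotted lines 2-fold. Ptgs2 (1.60) lies among the early response genes and the other 6 lie between -0.04 and 0.56; 109 grey points fall outside the axes.

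The same ratio was taken for coding models and for models of the other types. The coding models of Ptger4 were 1.98 times as high in replicate 1 (interval 1.59 to 2.47), and its processed transcript Ptger4-203 was 0.917 times as high (0.700 to 1.19). The corresponding intervals did not overlap. Ptger4-203 shares 1015 of its 3771 bases with Gm15937 and 82 with Ttc33, a protein-coding gene at 11.2 and 7.92 TPM, both on the opposite strand, whereas the coding models share none. Ptger2 gave 1.65 times (1.11 to 2.60) for the coding model and 1.08 times (0.786 to 1.46) for the retained intron model, with overlapping intervals. Lta4h gave 1.13 times (0.956 to 1.33) for its coding model and 0.775 times (0.634 to 0.946) for the others, intervals that did not overlap. This gap was not seen in the second table, where the Lta4h share of TPM outside coding models was 60.1% in both libraries. In the first table it was 51.5% and 63.5%. The intervals cover counting error only and not how reads were divided among models. Ptgs1 gave 1.21 times (1.05 to 1.40) and 1.07 times (0.878 to 1.31). Alox5ap and Pla2g4a went the other way, with 1.39 and 1.53 times for Alox5ap and 1.06 and 1.15 times for Pla2g4a. For Ptgs1, Alox5ap and Pla2g4a the intervals of the 2 kinds overlapped, and the second table did not keep their directions. Its shares of TPM outside coding models were 81.7% and 77.8% for Ptgs1, 28.25% and 33.0% for Alox5ap and 63.1% and 79.5% for Pla2g4a. Ptger4 (24.6% and 43.6%) and Ptger2 (68.6% and 78.3%) kept theirs. Over all genes the median was higher for coding models, at a log2 difference of 0.02 for coding models of 9198 genes and -0.08 for models of the other types in 4865 genes. For Ptgs2 no model of the other types is annotated, and all its counts were in the full-length coding model.

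Ptgs2 and Pla2g4a, which act in sequence, lie 138740 bases apart on chromosome 1 with 3 annotated genes wholly between them. Of these, Ptgs2os, a transcript on the opposite strand whose start lies 67 bases upstream of Ptgs2 and which runs away from it, was counted 2 times in the first library and not at all in the second, where a count of 0 allows up to 0.258 CPM. Ptgs2os2 had 3 and 0 counts. Ptgs2, Ptges, Alox5, Pla2g4a and Lta4h share no exonic bases with another gene. Alox5ap shares 13.3% of them with Gm19719, Ptger4 15.3% with Gm15937 and 1.23% with Ttc33, Ptger2 4.74% with Gm17173 and 2.77% with Gm49364, and Ptgs1 3.81% with Gm43621, all on the opposite strand.

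The rest of the pathway was described from a list of 62 genes, of which 30 were detected and 14 had 0 counts in both libraries. Among all protein-coding genes 46.0% were detected, a share close to that of the list. Genes said below to have no counts had none in the gene tables. The second quantification gave some of them values above 0, the highest being Slco2a1 at 0.540 and 2.07 TPM, Alox8 at 0.247 and 0.590 TPM, Pla2g2d at 0.335 and 0.479 TPM and Dpep1 at 0.203 and 0.396 TPM. Among 10 prostanoid synthases 7 were detected, and Hpgds, the haematopoietic prostaglandin D synthase, stood at 215 and 197 TPM, a mean of 206 ± 12.9. Tbxas1, thromboxane A synthase, stood at 67.4 ± 17.4 TPM and Akr1b3, an aldo-keto reductase that can make prostaglandin F2α, at 11.7 ± 4.10 TPM. Hpgds and Tbxas1 stood above every one of the 10 members in both libraries. The other prostaglandin D synthase, Ptgds, named after its values were seen, was at 0.04 and 0 TPM. Ptgis, prostacyclin synthase, and Akr1c18 had no counts.

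Of 18 genes that release arachidonate or its precursors 8 were detected, led by the lysosomal phospholipase Pla2g15 (56.6 ± 9.89 TPM), the diacylglycerol lipase Daglb (30.9 ± 0.672 TPM) and the monoacylglycerol lipase Mgll (9.27 ± 1.09 TPM). All 3 stood above Pla2g4a. Daglb shares 24.1% of its exonic bases with Rac1 on the opposite strand. Pla2g2d, Pla2g2f and Pla2g4d had no counts.

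Of 7 other lipoxygenase genes with Cotl1 only Cotl1, a coactosin-like protein that binds 5-lipoxygenase, was detected, at 54.2 and 23.9 TPM. The lipoxygenases themselves, like Alox5, stood below 1 TPM: Alox12 had a mean of 0.405 TPM and Aloxe3 of 0.115 TPM, and Alox8, Alox12b and Alox12e had no counts. Of 8 genes of leukotriene conversion 6 were detected, led by the dipeptidase Dpep2 (45.4 ± 7.79 TPM), the microsomal glutathione transferase Mgst1 (27.5 ± 1.96 TPM) and the leukotriene B4 hydroxylase Cyp4f18 (3.72 ± 2.03 TPM). Ggt1 and Dpep1 had no counts. Of 6 genes of prostaglandin breakdown and eicosanoid transport 4 were detected: the highest were the exporter Abcc1 (28.1 ± 2.90 TPM), the reductase Ptgr2 (12.8 ± 0.948 TPM, 32.0% of its exonic bases shared with Gm47484) and the exporter Abcc4 (4.20 ± 0.721 TPM), and Slco2a1, the prostaglandin importer, had no counts.

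Among 7 further prostanoid receptors 2 were detected. Ptger1, the EP1 receptor, was listed at 10.2 and 9.65 TPM, above Ptger4 and Ptger2, but how strand was handled is not stated and this level is uncertain. Ptgir, the prostacyclin receptor, stood at 2.36 ± 0.375 TPM. Ptger3, the EP3 receptor, stood at 1.17 and 0.92 TPM and so missed the limit in replicate 2. Ptgfr and Ptgdr had no counts. Among 6 leukotriene and lipoxin receptors the cysteinyl leukotriene receptors Cysltr1 (4.41 ± 0.156 TPM) and Cysltr2 (2.47 ± 0.884 TPM) were detected, Fpr2 had a mean of 0.320 TPM and Oxgr1 had no counts. Of the 26 listed genes with at least 50 scaled counts 1 was over 2-fold higher in replicate 1, the platelet-activating factor hydrolase Pla2g7 (log2 difference 1.33, named after its value was seen), and the median was 0.23.

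**Figure D5:**
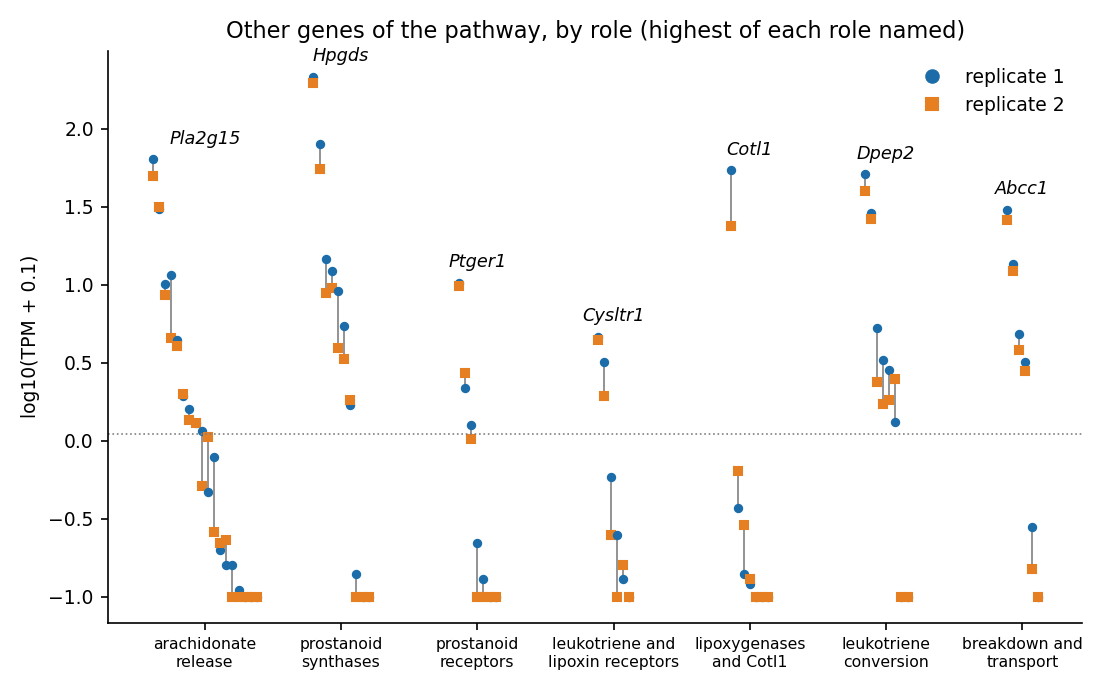
Log10(TPM + 0.1) of the 62 other pathway genes by role, circles for replicate 1 and squares for replicate 2, joined per gene; the dotted line is 1 TPM and genes at -1.0 have a TPM of 0. Hpgds is highest, and genes at 0 in the gene tables occur in every role.

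All 8 listed macrophage markers were detected. Most markers of other sources of eicosanoid transcripts were low in the gene tables. Of 8 mast cell and basophil markers 0 were detected (summed level 0.67 and 1.36 TPM, 6 without counts, Cpa3 and Kit the exceptions). Of 4 eosinophil markers 0 were detected (0.04 and 0.03 TPM, Prg2, Epx and Ear1 at 0), and of 6 stromal markers 0 (0.33 and 0.57 TPM, Pdgfra at 0). In the second quantification 1 stromal marker passed 1 TPM in both libraries, Thy1 at 4.07 and 8.71 TPM. Neutrophil markers summed to 8.92 and 7.13 TPM with 2 of 8 detected and Elane at 0. The detected ones were Mmp8 (3.42 and 2.85 TPM) and S100a8 (1.53 and 1.75 TPM, on 9 and 7 counts). Platelet markers summed to 49.1 and 35.4 TPM with 2 of 5 detected. These were Pf4 (46.1 and 33.3 TPM), which made up most of the sum, and Gp1ba (1.15 and 1.05 TPM). Itga2b stood at 0.75 and 0.71 TPM and Gp9 at 0.48 and 0 TPM. The part of these other sources in the levels of Ptgs1 and Tbxas1, which platelets also express, was not tested.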

How the data were processed

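RNA of the nuclear fraction was sequenced after ribosomal RNA depletion, in 2 libraries of 1 group. Per the file headers and the labels, the authors deposited expected counts and TPM per gene and per transcript on mm10 with GENCODE annotation M21, and a second transcript table of estimated counts and TPM. The aligner, the counting programs and the strand setting are not stated in any source used here. The authors also deposited interval bounds around a posterior mean (recorded as signal), which are given above for Ptges and Alox5 only. Entries that name no annotated gene held 1.18% and 0.405% of counts and were left out. A count of 0 was given a limit of 3 counts, 0.157 and 0.258 CPM.

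Counts were scaled with TMM (edgeR 4.0.16, R 4.3.3) and DESeq2 1.42.0 size factors as an alternative. Levels carry exact Poisson intervals and ratios exact conditional binomial intervals (95%, scipy 1.17.1), which cover counting error only, since reads are not independent molecules. The ratio step was tested on simulated data. The labels give 2 biological replicates with 1 donor identifier, so the spread may be technical. Model types follow the annotation. Promoter windows came from RefSeq tables (9 of 10 members matched), 3′ UTRs and splice boundaries from the genome of the files' build, and coding sequences were translated and aligned with Biopython 1.88. Named genes were the 10 members, up to 3 highest and the lowest of each pathway subgroup, and overlapping or neighbouring genes; a value this rule allows is not reported here. For Dpep2, which has 2 identifiers, the one with most counts was used. With 2 libraries no likeness of pattern could be measured. The members and all lists were chosen with earlier results of these data known.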

Additional observations from a re-analysis of the deposited data

How the results depend on the processing

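The median level of the members, 3.88 TPM, was 5.35 by posterior mean TPM, 12.9 when TPM was rescaled to protein-coding genes (which raised all 10 members), and 3.52 to 3.80 in single libraries. Of 10 places in the order, the second quantification kept 1, and single libraries kept 6 to 8. At a limit of 5 TPM 3 members were detected in place of 7, and 13 pathway genes in place of 30, and the share of all genes at that limit was not taken. The median share of TPM in models not typed as protein-coding, 34.4%, was 65.7% in the second transcript table. For each the cause was not tested, apart from the stricter limit and the rescaling, which act by construction. In the alternatives run for that count 1 member was over 2-fold apart between libraries. The difference of Ptgs2 was 1.60, and 0.92, below 2-fold, on log2(TPM + 1) less the median gene, a scale that shrinks low levels. The comparison of coding models alone was chosen after seeing the data; it moved Alox5 from 0.24 to 1.40 (on 8.56 and 1.47 counts), Ptger4 from 0.56 to 0.98, Ptger2 from 0.34 to 0.71 and Lta4h from -0.04 to 0.17. No paired analysis was possible because the samples form 1 group. Depth limits Ptges, Alox5 and Ltc4s, with 14 to 39 counts.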
